A study of Mus musculus with 18 samples.

Results

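The genes described here are 10 members of the BCL2 family that set whether a cell survives or dies through its mitochondria. They were chosen by name, as the rows of the deposited spleen table whose symbols are Bcl2, Bcl2l1, Mcl1, Bax, Bak1, Bad, Bid, Bcl2l11, Bbc3 and Pmaip1. All 10 were found among the 19320 genes used, and all 10 reached an RPKM (a read count scaled to transcript length and to the mapped reads of the library) of at least 1 in every one of the 18 libraries. No member differed between groups past the adjusted threshold in any comparison. Bcl2l1, Bcl2, Bbc3 and Pmaip1 varied more from library to library than the median tested gene and the other 6 members less, and Bcl2l1 followed the erythroid gene Alas2 closely.

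The spleens came from ICR mice, an outbred strain, aged 10 weeks (male in the groups that the study's methods describe), with 3 libraries in each of 6 groups. Con was the control group. A10 received alginate oligosaccharide (AOS), made by breaking down a seaweed polysaccharide, at 10 mg/kg. STZ received streptozotocin, a toxin of the insulin-producing beta cells that is used to model type 1 diabetes. STZ-A10 received STZ and AOS at 10 mg/kg. A10-FMT received STZ and a microbiota transplant from donors given AOS at 10 mg/kg, and Con-FMT received STZ and a transplant from control donors. All groups except Con and A10 therefore carried STZ, the transplanted material was small intestinal content pooled over the donors of a group, and how AOS was given to A10 and STZ-A10 animals is not given in the sources used here. Several comparisons share a group, STZ being the second group of 3 of them, so they are not independent of each other. Nothing in the labels ties each library to an animal of its own, so the p-values measure the spread between these samples.

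The BCL2 family acts at the outer membrane of the mitochondrion. Bcl2, Bcl2l1 (BCL-XL) and Mcl1 protect that membrane, Bax and Bak1 are the effectors that open it and release cytochrome c, and the BH3-only proteins Bad, Bid, Bcl2l11 (BIM), Bbc3 (PUMA) and Pmaip1 (NOXA) sense stress and either restrain the protectors or engage the effectors. In blood-forming tissues Bcl2 is known for the survival of mature lymphocytes, Bcl2l1 for that of late erythroid cells, and Bcl2l11 for the removal of surplus lymphocytes. The mouse spleen holds both B cell follicles and an erythroid red pulp, so Alas2, the heme synthesis enzyme of erythroid cells, and Cd79a, a chain of the B cell receptor, are given as reference genes.

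The sequences that lie directly before the start sites of Bcl2l1, Bcl2 and Bcl2l11, the members with the widest spread or the clearest group pattern, are shown with that of Alas2, the gene Bcl2l1 moved with. They are RefSeq sequences on build GRCm38.p6, read 5′ to 3′ on the gene's strand, with bases of any annotated exon of that strand left out. For genes with several start sites the most upstream is shown. The stretches are chr2:152831729-152831978 (minus strand) for Bcl2l1, chr1:106714291-106714540 (minus strand) for Bcl2, chr2:128125788-128126037 (plus strand) for Bcl2l11 and chrX:150547167-150547374 (plus strand) for Alas2. Capitals mark matches to the GATA words (AGATAA or AGATAG, and TGATAA or TGATAG) and to the forkhead word GTAAACA, on either strand.
Bcl2l1: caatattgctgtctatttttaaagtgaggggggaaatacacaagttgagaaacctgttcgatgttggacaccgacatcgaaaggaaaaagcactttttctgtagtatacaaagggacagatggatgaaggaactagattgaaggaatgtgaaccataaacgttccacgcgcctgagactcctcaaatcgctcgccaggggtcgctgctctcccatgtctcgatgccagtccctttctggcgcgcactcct
Bcl2: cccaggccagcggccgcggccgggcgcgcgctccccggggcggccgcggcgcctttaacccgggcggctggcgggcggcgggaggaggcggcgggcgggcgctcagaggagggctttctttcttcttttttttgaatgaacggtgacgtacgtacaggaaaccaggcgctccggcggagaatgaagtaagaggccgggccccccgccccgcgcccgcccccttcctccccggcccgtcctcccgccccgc
Bcl2l11: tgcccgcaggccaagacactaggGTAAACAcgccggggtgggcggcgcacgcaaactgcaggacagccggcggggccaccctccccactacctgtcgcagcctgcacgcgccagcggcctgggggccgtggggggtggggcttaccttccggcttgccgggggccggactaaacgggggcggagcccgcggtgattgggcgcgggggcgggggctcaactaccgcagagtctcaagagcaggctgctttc
Alas2: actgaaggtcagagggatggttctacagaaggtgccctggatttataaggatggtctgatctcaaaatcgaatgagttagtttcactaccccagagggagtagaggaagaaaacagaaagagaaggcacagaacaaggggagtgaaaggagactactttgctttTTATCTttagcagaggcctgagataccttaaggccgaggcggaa

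The Alas2 stretch held 1 GATA word, where 23.7% of all promoter windows of that length did. The Bcl2l1, Bcl2 and Bcl2l11 stretches held none, against 26.5% of all windows of their length, and 1 of the 3 Bcl2l1 windows in the reference table (chr2:152828440-152828739, not shown) held a GATA word. The Bcl2l11 stretch held 1 forkhead word, a kind of site known to be bound by FOXO factors, where 3.17% of all windows did. The word TTCNNNGAA, of the kind STAT5 binds, was found in none of the 4 stretches, against 7.02% of all windows of 250 bases. CCNCNCCC, of the kind KLF1 binds, was found in 45.9% of all windows of 250 bases, with 3 matches in Bcl2, 6 in Bcl2l11 and 0 in Bcl2l1. Among windows not shown, Bcl2l1 had 2 matches in chr2:152830668-152830967 and Bcl2l11 had 1 in chr2:128127325-128127624. Alas2 had 0 in the stretch shown and 4 once its 42 left-out exon bases were included. A match describes letters in this window and is not a measured site.

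The libraries differed in ways that the groups did not explain. Globin genes made up between 10.4% and 42.7% of all RPKM in a library, Alas2 ran from 217 to 1272 RPKM and Cd79a from 190 to 971 RPKM. By erythroid, B cell or neutrophil levels, 4 libraries stood apart. They were STZ replicate 1 (Alas2 lowest, Cd79a highest), STZ-A10 replicate 1 (Alas2 282 RPKM), A10-FMT replicate 3 (Alas2 highest, Cd79a lowest) and Con replicate 1, where 10 neutrophil and progenitor markers summed to 15917 RPKM against 420 to 4344 RPKM in the other 17 libraries. The erythroid markers (13 of 14 listed were in the table) and the 12 B cell markers were detected, none of them at 0 in all 3 libraries of any group. Exocrine pancreas markers were also present and summed to between 23.3 and 9225 RPKM in 17 libraries and to 20225 RPKM in A10-FMT replicate 2. Testis germ cell markers summed to between 0.31 and 32.8 RPKM in 17 libraries and to 274 RPKM in Con replicate 2. A10-FMT replicate 2 and Con replicate 2 were kept where the 4 libraries were left out. In bulk tissue, fewer cells of a type and less RNA per cell cannot be told apart, and the part of these markers in the results that follow was tested only where a value is given.

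Per kilobase of transcript, Mcl1 was the most abundant member, with a median over the 18 libraries of 187 RPKM. Bax (74.9 RPKM), Bcl2l1 (67.0), Bak1 (42.1) and Bid (29.5) followed. Bad (16.02), Bcl2 (15.96), Bcl2l11 (14.6), Pmaip1 (11.7) and Bbc3 (4.36) were lowest. The members differed most in how much they varied. The highest library exceeded the lowest 4.28-fold for Bcl2l1, 3.77-fold for Bcl2, 2.88-fold for Bbc3 and 2.47-fold for Pmaip1, while the effectors Bak1 (1.32-fold) and Bax (1.42-fold) varied least. The median over 12744 tested genes was 2.18-fold.

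**Figure D1:**
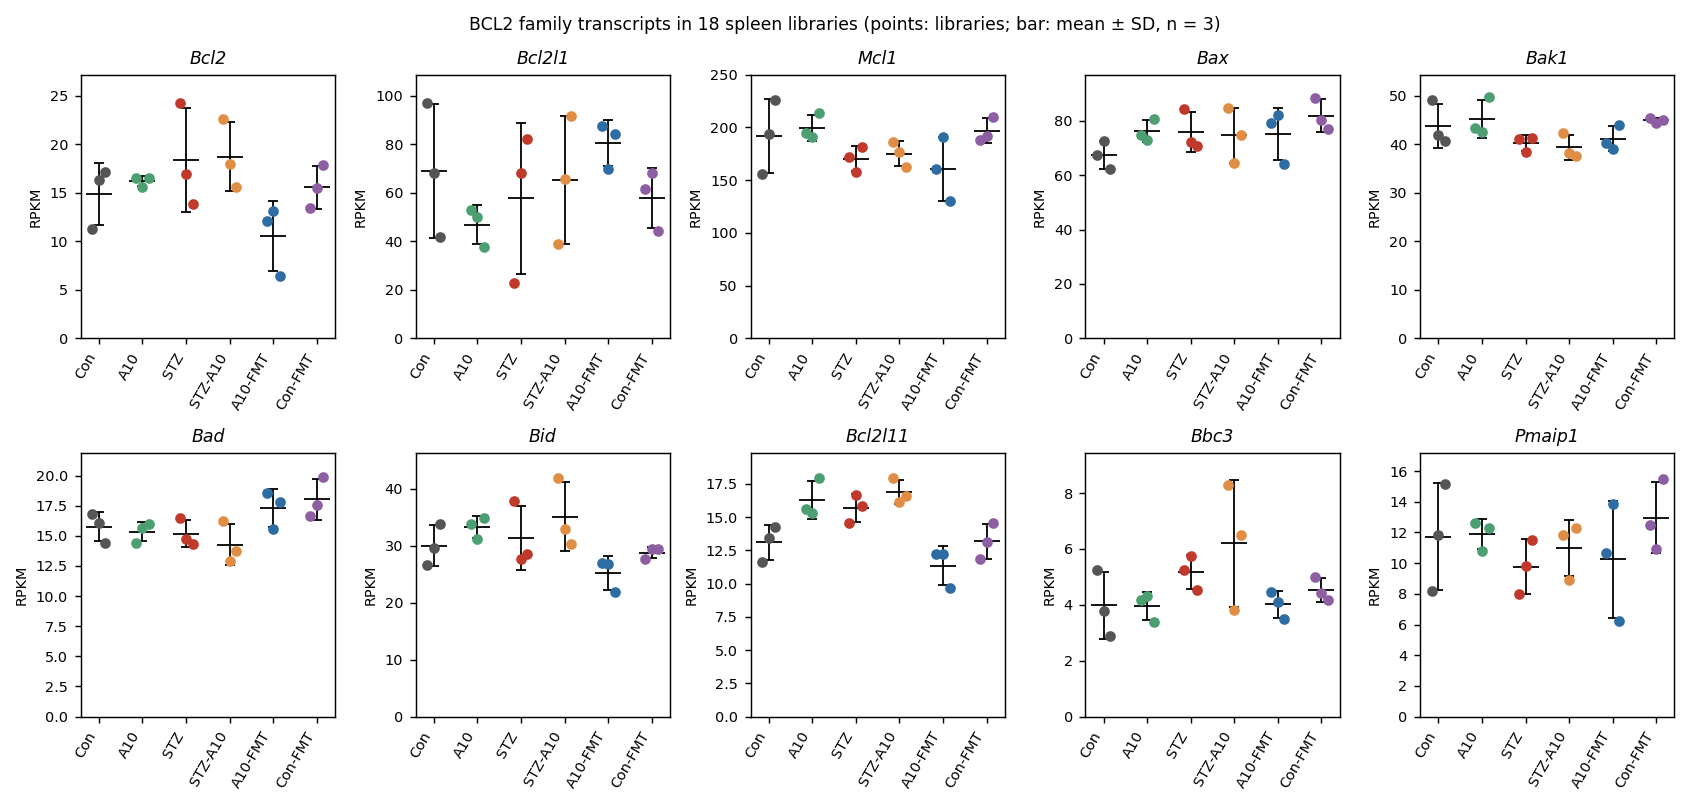
RPKM of each of the 10 genes (y axes from 0, each with its own scale) in the 6 groups, with 1 point per library and the mean ± SD of 3 libraries as black bars. Bax and Bak1 stay in a narrow band, Bcl2l1 spreads from 22.7 to 97.1 RPKM, and the lowest Bcl2 and Bcl2l11 points are in A10-FMT.

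Counted over all 10 members, 0 passed the adjusted threshold in STZ against Con (0.163% of the 12905 tested genes did), 0 in A10 against Con (0.00775%), 0 in STZ-A10 against A10 (0.0542%), 0 in STZ-A10 against STZ (0.00775%), 0 in A10-FMT against STZ (0.00775%), 0 in Con-FMT against STZ (0.00775%) and 0 in A10-FMT against Con-FMT (0%), with limma. None passed for the interaction of STZ and AOS (0% of tested genes) or for any difference among the 6 groups (0.449%). At an unadjusted p under 0.05 the counts in the same order of comparisons were 1 (background 11.1%), 1 (5.25%), 1 (10.2%), 0 (2.93%), 2 (17.2%), 1 (5.24%) and 2 (23.6%). The 10 members thus gave shares between 0% and 20%, below the background in 4 of the 7 comparisons and above it in 3. For the interaction there were 0 (2.86%), and for any difference among the groups 2 (22.6%). With array weights, which did not converge, between 1 and 10 members passed, beside 1969 to 12624 of the 12905 genes. Without A10-FMT replicate 2, 1 member passed in A10-FMT against Con-FMT (beside 2625 of 12891 genes) and 1 for any difference (beside 814).

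**Figure D2:**
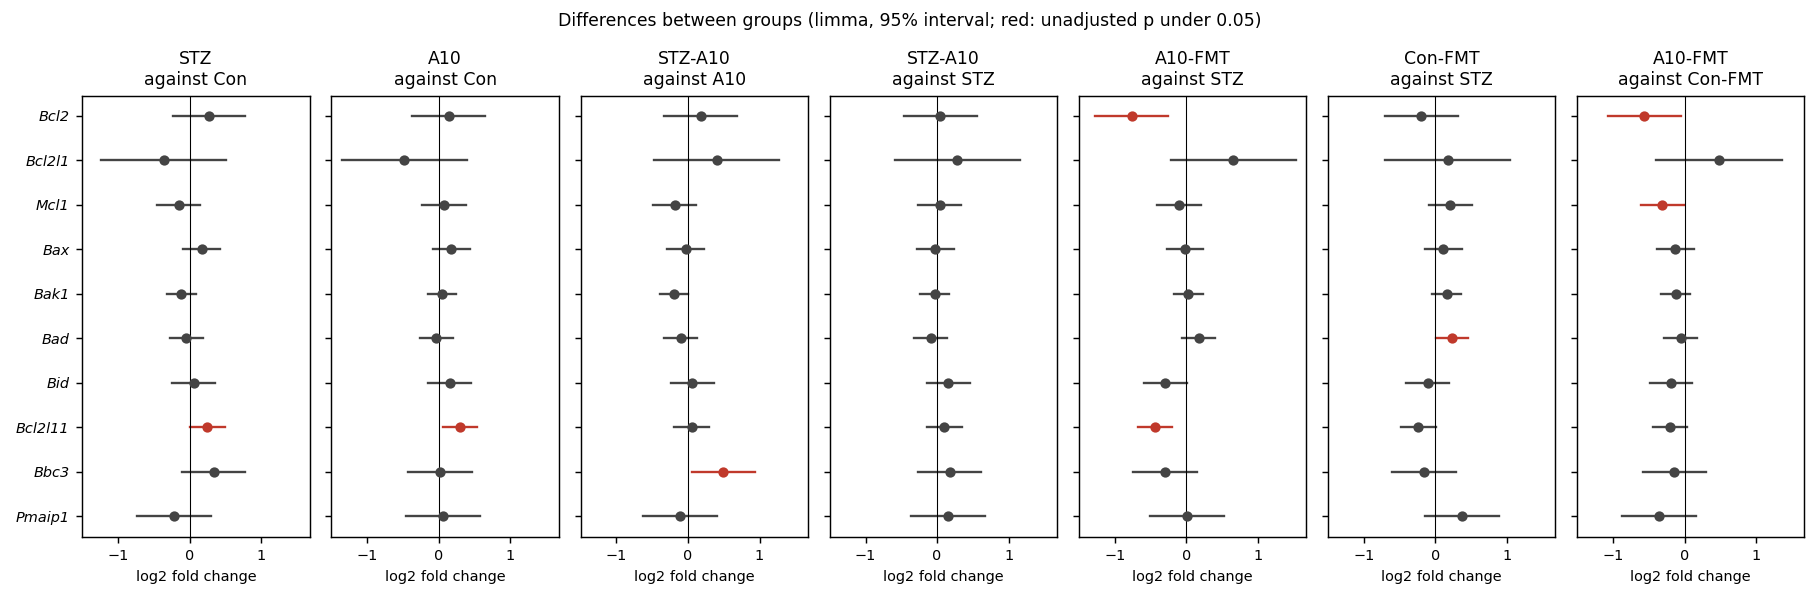
Log2 fold change on the log2(RPKM + 1) scale (x axis) of the 10 genes in the 7 group comparisons, with limma's 95% interval as the line and red for an unadjusted p under 0.05. The intervals farthest from 0 are those of Bcl2l11 and Bcl2 in A10-FMT against STZ (-0.44 and -0.76), and the widest intervals are those of Bcl2l1.

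Among the protectors, Bcl2 (chromosome 1, 106538178 to 106714274, minus strand) was lowest in A10-FMT, at 12.1, 13.1 and 6.44 RPKM in its libraries, and 24.3, 16.9 and 13.8 RPKM in STZ. Con held 11.3, 16.3 and 17.1 RPKM, and Con-FMT 13.4, 15.4 and 17.9 RPKM. A10 was 16.5, 15.6 and 16.5 RPKM, and STZ-A10 was 22.6, 17.96 and 15.6 RPKM. Every A10-FMT library lay below every STZ and every Con-FMT library, while the lowest Con library overlapped them. The log2 fold change of Bcl2 in A10-FMT against STZ was -0.76 (SE 0.24, limma adjusted p = 0.227). It was -0.47 without A10-FMT replicate 3, and -0.26 without the 4 libraries that stood apart. Against Con-FMT it was -0.56 (SE 0.24, adjusted p = 0.206), and -0.27 without A10-FMT replicate 3. Adding the erythroid and B cell levels as covariates gave -0.44 against STZ and -0.11 against Con-FMT. The summed B cell markers were 663 to 2262 RPKM in A10-FMT, 1613 to 2974 RPKM in STZ and 2422 to 2591 RPKM in Con-FMT. In STZ against Con the Bcl2 difference was 0.27 (SE 0.24, adjusted p = 0.771), and its direction turned without the 4 libraries, to -0.12.

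Bcl2l1 (chromosome 2, 152780668 to 152831728, minus strand) had the widest spread. It was 97.1, 68.4 and 41.6 RPKM in Con, 52.9, 50.2 and 37.7 RPKM in A10, and 22.7, 68.4 and 82.2 RPKM in STZ. STZ-A10 held 38.7, 65.8 and 91.7 RPKM, A10-FMT held 87.6, 69.7 and 84.3 RPKM, and Con-FMT held 61.6, 68.2 and 44.3 RPKM. Within Con, STZ and STZ-A10 the libraries spanned more than the distance between any pair of group means, and of the 7 comparisons tested only A10-FMT against Con-FMT had no overlap, with A10-FMT higher. That difference was 0.48 (SE 0.41, limma adjusted p = 0.422), and -0.04 once the erythroid and B cell levels were covariates. Against STZ it was 0.66 (SE 0.41, adjusted p = 0.378), or 0.10 without STZ replicate 1. The STZ against Con difference of -0.36 (SE 0.41, adjusted p = 0.834) turned to 0.20 without STZ replicate 1.

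Mcl1 (chromosome 3, 95658788 to 95663176, plus strand), the short-lived protector that many blood cells need, moved less. It was 160, 191 and 130 RPKM in A10-FMT and 189, 191 and 210 RPKM in Con-FMT, with overlap at the highest A10-FMT library. The log2 fold change was -0.31 (SE 0.14, limma adjusted p = 0.209), and without A10-FMT replicate 3 it was -0.17. Without A10-FMT replicate 2 it was -0.44 with an adjusted p of 0.0446, in a fit where 2625 of 12891 genes passed. With the erythroid and B cell covariates it was -0.09 (adjusted p = 0.999), and with median centring -0.13. In STZ-A10 every library (163 to 186 RPKM) was below every A10 library (191 to 214 RPKM), a difference of -0.19 (SE 0.14, adjusted p = 0.734). In Con-FMT every library was above every STZ library (158 to 182 RPKM), a difference of 0.21 (SE 0.14, adjusted p = 0.964).

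Of the summed RPKM of the 3 protectors, Mcl1 made up 58.9% to 79.8% per library, Bcl2l1 10.4% to 38.2% and Bcl2 2.92% to 11.1%. The Bcl2l1 share was lowest in STZ replicate 1 and highest in A10-FMT replicate 3, so the make-up of the protectors changed more between libraries than their sum, which ran from 219 to 285 RPKM. The Bax to Bcl2 ratio, often read as a rough balance of death and survival, was 6.53, 6.25 and 9.98 in A10-FMT and 3.47, 4.27 and 5.13 in STZ, so these groups did not overlap. The ratio was 1.75-fold higher in A10-FMT, with an exact two-sided permutation p of 0.1, which is the smallest that 3 against 3 libraries can give (0.525 adjusted over 7 comparisons). On the log2 scale this difference was 0.81, and it ranged from 0.59 to 0.94 when single libraries were left out. In the other 6 comparisons the libraries overlapped. The Bax level itself was 79.1, 82.1 and 64.3 RPKM in A10-FMT and 84.3, 72.3 and 70.9 RPKM in STZ.

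**Figure D3:**
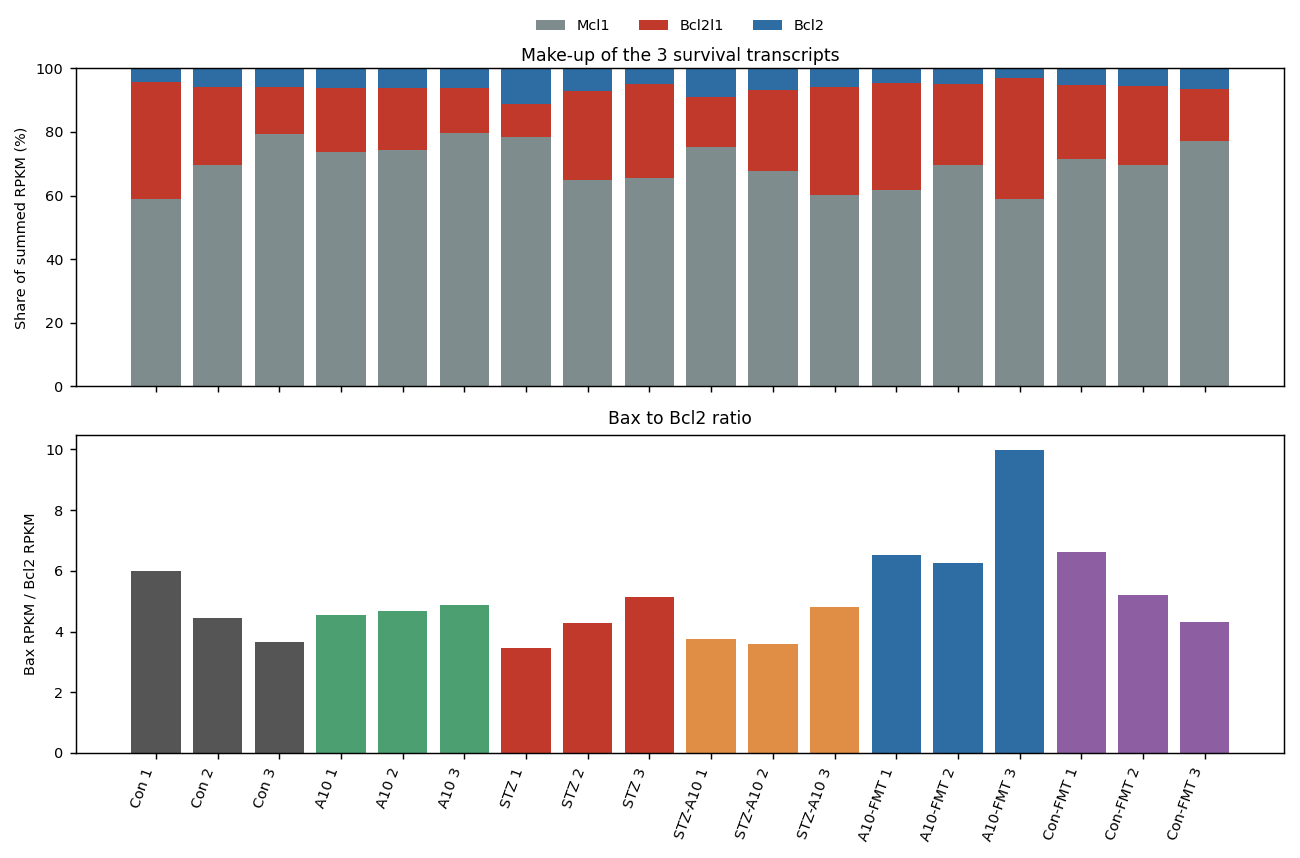
Upper panel, the share (%) of Mcl1, Bcl2l1 and Bcl2 in their summed RPKM for each of the 18 libraries; lower panel, the Bax to Bcl2 RPKM ratio of each library, coloured by group. The Bcl2l1 share runs from 10.4% to 38.2%, and the ratio peaks at 9.98 in A10-FMT replicate 3.

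The effectors varied little. Bax (chromosome 7, 45461697 to 45466898, minus strand) had group means from 67.4 ± 5.17 RPKM (SD, n = 3) in Con to 81.9 ± 6.02 RPKM in Con-FMT. All A10 libraries (72.9 to 80.7 RPKM) lay above all Con libraries (62.2 to 72.5 RPKM), a log2 difference of 0.18 (SE 0.12, limma adjusted p = 0.989). Bak1 (chromosome 17, 27019810 to 27029009, minus strand) had group means from 39.4 ± 2.63 RPKM in STZ-A10 to 45.2 ± 3.92 RPKM in A10. STZ-A10 was below A10 without overlap, a difference of -0.19 (SE 0.09, adjusted p = 0.510). Con-FMT was above STZ without overlap, at 0.16 (SE 0.09, adjusted p = 0.964). A10-FMT was below Con-FMT without overlap, at -0.13 (SE 0.09, adjusted p = 0.364), and this Bak1 difference turned to 0.05 when the libraries were centred on their medians.

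Among the BH3-only genes, Bcl2l11 (chromosome 2, 128126038 to 128162547, plus strand) showed the smallest p of the 10 members for any difference among the 6 groups, with an unadjusted p of 0.0015 and an adjusted p of 0.0855 (limma). It was 12.2, 12.2 and 9.66 RPKM in A10-FMT and 14.6, 16.6 and 15.8 RPKM in STZ. Con held 11.6, 13.4 and 14.3 RPKM and Con-FMT 11.9, 13.1 and 14.5 RPKM. A10 held 15.6, 15.3 and 17.9 RPKM, and STZ-A10 held 17.96, 16.2 and 16.6 RPKM. By group mean the order was A10-FMT, Con, Con-FMT, STZ, A10 and STZ-A10, with no overlap between A10-FMT and STZ, between Con and STZ, between Con and A10, or between Con-FMT and STZ, and with overlap between A10-FMT and Con-FMT, between Con and Con-FMT, and between A10, STZ and STZ-A10. The log2 fold changes were -0.44 in A10-FMT against STZ (SE 0.11, adjusted p = 0.151), 0.24 in STZ against Con (SE 0.11, adjusted p = 0.444), 0.29 in A10 against Con (SE 0.11, adjusted p = 0.787) and -0.24 in Con-FMT against STZ (SE 0.11, adjusted p = 0.943). The first of these was -0.34 without A10-FMT replicate 3 and -0.37 with the erythroid and B cell covariates, and -0.27 with median centring or quantile normalization. Without the 4 libraries that stood apart, the adjusted p for any difference among the groups was 0.0374 for Bcl2l11 (2045 of 12775 genes passed), and without A10-FMT replicate 2 it was 0.0448 (814 of 12891 genes passed). Red pulp macrophage markers summed to 653 to 808 RPKM in A10-FMT, 985 to 1035 RPKM in STZ and 699 to 904 RPKM in Con, and platelet and megakaryocyte markers to 231 to 699 RPKM in STZ and 802 to 2017 RPKM in Con, so these lists did not overlap between STZ and Con either. Their part in the Bcl2l11 differences was not tested.

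Bid (chromosome 6, 120891930 to 120916853, minus strand), which caspase 8 cleaves to link death receptors to the mitochondrion, was 27.0, 26.9 and 21.8 RPKM in A10-FMT and 37.9, 27.7 and 28.5 RPKM in STZ. The groups did not overlap, and the difference was -0.30 (SE 0.14, limma adjusted p = 0.295), or -0.06 without the 4 libraries that stood apart. Against Con-FMT, also without overlap, it was -0.19 (SE 0.14, adjusted p = 0.361), turning to 0.04 with the erythroid and B cell covariates. Bbc3 (chromosome 7, 16308393 to 16318205, plus strand), the p53 target PUMA, was 8.29, 3.80 and 6.50 RPKM in STZ-A10 and 4.18, 4.30 and 3.37 RPKM in A10. These groups overlapped, and the difference of 0.49 (SE 0.21, adjusted p = 0.416) ranged from 0.28 to 0.76 when single libraries were left out. Bbc3 in A10-FMT (3.50 to 4.46 RPKM) lay below STZ (4.53 to 5.75 RPKM), a difference of -0.30 (SE 0.21, adjusted p = 0.414). In STZ against Con it was 0.33 (SE 0.21, adjusted p = 0.630), with 0.17 without Con replicate 3 and 0.51 without Con replicate 1.

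Bad (chromosome 19, 6941861 to 6951899, plus strand), which survival kinases hold in check, was 16.6, 17.6 and 19.9 RPKM in Con-FMT and 16.5, 14.7 and 14.4 RPKM in STZ. The groups did not overlap, and the difference was 0.23 (SE 0.11, limma adjusted p = 0.940). Pmaip1, which opposes Mcl1, ran from 6.25 RPKM in A10-FMT replicate 3 to 15.5 RPKM in Con-FMT replicate 3, and its groups overlapped in each of the 7 comparisons.

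Members without overlap between groups were counted against the same share of all tested genes. In A10-FMT against STZ 4 of 10 were lower and 0 higher (12.1% and 2.33% of tested genes), and in A10-FMT against Con-FMT 3 were lower and 1 higher (23.9% and 5.35%). In Con-FMT against STZ 3 were higher and 1 lower (6.94% and 6.22%). In STZ against Con 1 was higher and 0 lower (5.77% and 7.07%), and in A10 against Con 2 were higher and 0 lower (11.7% and 4.81%). In STZ-A10 against A10 2 were lower and 0 higher (14.9% and 7.69%), and in STZ-A10 against STZ 0 were higher and 0 lower (3.29% and 4.71%). The median log2 fold change of the members in A10-FMT against Con-FMT was -0.17, as was that of all tested genes, and in A10-FMT against STZ it was -0.06 against -0.15. Centring each library on its median moved the medians of all tested genes to 0.01 and 0.02, so differences of A10-FMT are relative to a shift of that size.

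The levels of several members were related across libraries to those of the reference genes. Bcl2l1 followed Alas2 over the 18 libraries (Pearson's r 0.95, Spearman's rho 0.92). Both permutation p were 1e-05, the smallest that 100000 permutations can give, and the adjusted Pearson p over the 20 relations of this kind was 1e-04. Within groups r was 0.95, after centring each library on its median 0.96, and without the 2 libraries farthest from the median Alas2 level (STZ replicate 1 and STZ-A10 replicate 1) 0.92. The median r of the tested genes with Alas2 was -0.49, and 99.5% of them had a lower r than Bcl2l1. The 3 tested genes most like Bcl2l1 over the 18 libraries were Pdzk1ip1 (r 0.96), Smox (0.96) and Mkrn1 (0.96), of 9362 compared.

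**Figure D4:**
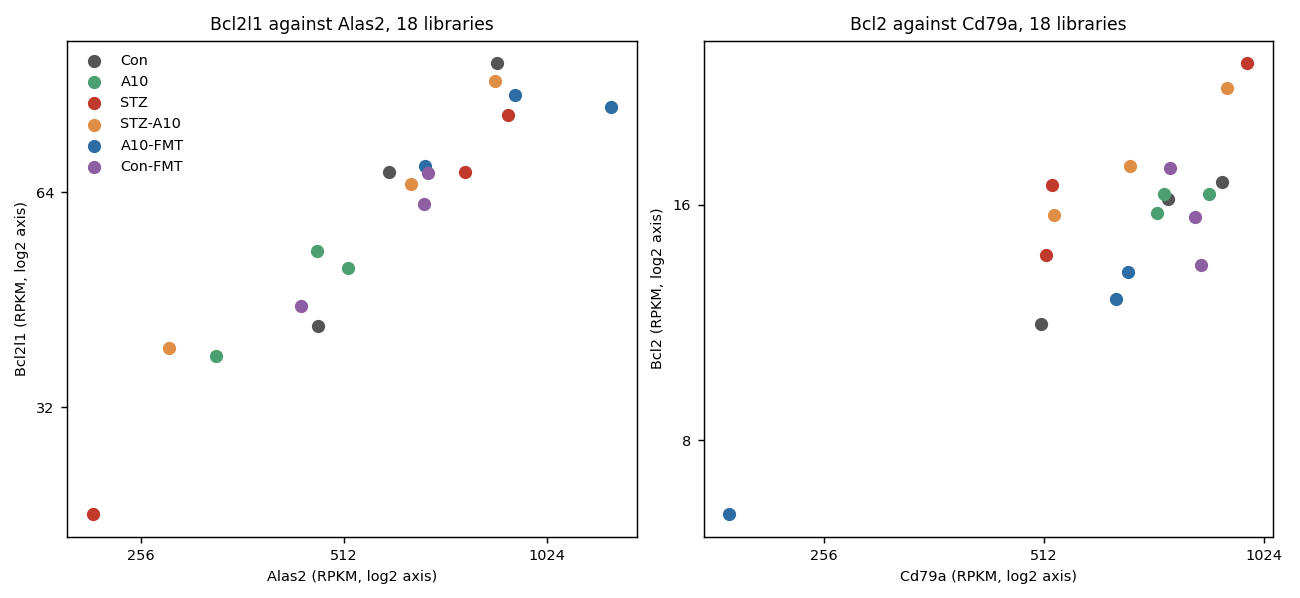
Bcl2l1 against Alas2 (left) and Bcl2 against Cd79a (right), RPKM on log2 axes, 1 point for each of the 18 libraries, coloured by group. On the left the lowest point, STZ replicate 1, has Alas2 at 217 RPKM and Bcl2l1 at 22.7 RPKM. On the right A10-FMT replicate 3, with Cd79a at 190 RPKM and Bcl2 at 6.44 RPKM, lies far from the rest.

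Bid and Bcl2 went the other way with Alas2, with r of -0.89 (rho -0.84, permutation p 1e-05, adjusted 1e-04) and -0.82 (rho -0.82, permutation p 4e-05, adjusted 0.000267). Within groups r was -0.93 and -0.83. Without the 2 libraries farthest from the median Alas2 level it was -0.83 and -0.73, and without the 4 libraries that stood apart -0.73 (adjusted permutation p 0.0152) and -0.58, where the relation of Bcl2 no longer passed (adjusted permutation p 0.0581). Since 76.3% of the tested genes correlated negatively with Alas2, the sign alone sets neither gene apart, and only 0.48% and 3.95% of genes had a lower r. Mcl1 also passed with Alas2 (r -0.60, rho -0.64, permutation p 0.00901, adjusted 0.0225), but 38.7% of genes had a lower r. Its r was -0.88 without the 2 libraries and -0.83 without the 4. After centring it was -0.21 and no longer passed (adjusted permutation p 0.524).

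With Cd79a, Bcl2 had an r of 0.84 (rho 0.67, permutation p 0.00031, adjusted 0.00103), Mcl1 0.80 (rho 0.65, permutation p 0.00011, adjusted 0.00044) and Bid 0.76 (rho 0.73, permutation p 0.00011, adjusted 0.00044). Without Con replicate 1 and A10-FMT replicate 3, the libraries farthest from the median Cd79a level, r was 0.51 for Bcl2 (adjusted p 0.0783), 0.59 for Mcl1 (adjusted p 0.0391) and 0.61 for Bid (adjusted p 0.0316). The relation of Bcl2 with Cd79a thus no longer passed without those libraries. Without the 4 libraries that stood apart its r was 0.21. Leaving out libraries at the extremes of a reference gene narrows its range, which by itself can lower r, here and for Alas2. The median r of the tested genes with Cd79a was 0.49, and 85.3%, 81.1% and 75.5% of them had a lower r than Bcl2, Mcl1 and Bid. After centring, Bcl2 passed (r 0.74, adjusted permutation p 0.0123), while Mcl1 (r 0.46, adjusted permutation p 0.0994) and Bid (0.45, 0.116) no longer did. Within groups r was 0.92 for Bcl2 (adjusted permutation p 0.0118), 0.75 for Mcl1 (0.0383) and 0.84 for Bid (0.00525). Bcl2l1 had an r of -0.64 with Cd79a (rho -0.87, permutation p 0.00777, adjusted 0.0222). Alas2 and Cd79a were themselves related (r -0.76), and all points share 1 scaling per library, so these relations are not independent. The genes most like Bcl2 were Pcnx, Tnrc6a and Dtx1 (r 0.97, 0.97 and 0.96).

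**Figure D5:**
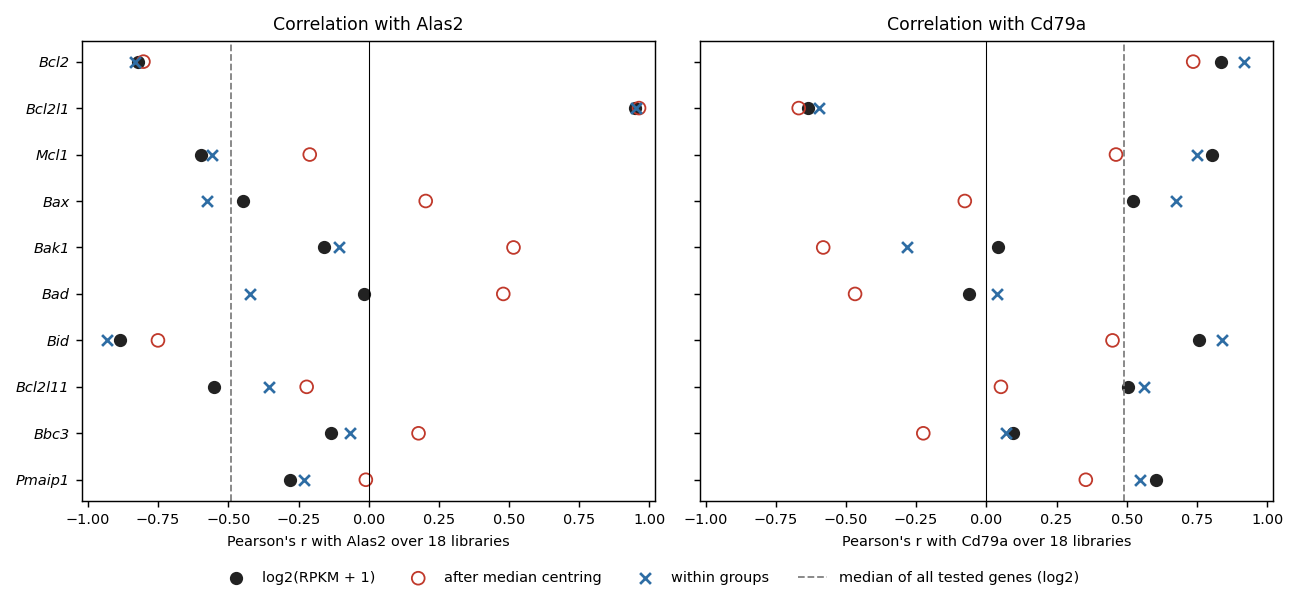
Pearson's r of each gene with Alas2 (left) and with Cd79a (right) over 18 libraries, as log2(RPKM + 1) values (black), after median centring (open red) and within groups (blue crosses), with the median of all tested genes dashed. For Alas2 the black point of Bcl2l1 lies at 0.95 and those of the other members below 0, while after centring Bak1 (0.52), Bad (0.48), Bax (0.20) and Bbc3 (0.18) also lie above 0.

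The effectors and Bad showed no relation that kept its direction. Bax had an r of -0.45 with Alas2 and 0.52 with Cd79a (adjusted p 0.0926 and 0.0338), and after centring these were 0.20 and -0.08. With Cd79a, 52.3% of tested genes had a lower r than Bax. Bak1 (r -0.16 and 0.04) and Bad (-0.02 and -0.06) were near 0, although without the 4 libraries that stood apart Bak1 gave -0.68 and 0.69, and after centring 0.52 and -0.58. Bcl2l11 had -0.55 with Alas2 (rho -0.46, permutation p 0.0181, adjusted 0.0338), but 43.9% of tested genes had a lower r. Within groups it was -0.36 and after centring -0.22, and neither passed (adjusted permutation p 0.236 and 0.524). With Cd79a, Bcl2l11 had 0.505 (adjusted permutation p 0.0514). Pmaip1 had -0.28 with Alas2 and 0.60 with Cd79a (adjusted permutation p 0.373 and 0.0236). With Cd79a, 59.2% of tested genes had a lower r than Pmaip1, and after centring it was 0.35 and no longer passed (adjusted permutation p 0.254). Bbc3 had -0.13 with Alas2 and 0.09 with Cd79a. The genes most like Bax were Mbd3 (r 0.91), Hnrnpa0 (0.89) and Spr (0.87).

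The other genes of the pathway were examined as 4 lists. Of 13 other BCL2 family genes, 18 genes of the mitochondrial death pathway with the caspases, 10 of the death receptor pathway and 12 of survival receptors and signalling, 0 passed the adjusted threshold in any comparison with limma, and in the other 4 group comparisons and the interaction 0 to 2 genes per list had an unadjusted p under 0.05. For any difference among the 6 groups the counts were 2 of 13, 4 of 18, 5 of 10 and 4 of 12, where 22.6% of all tested genes were counted. In STZ against Con, at an unadjusted p under 0.05, 1 of 13 other family genes and 1 of 12 survival genes were higher, and 0 of the other lists, where 11.1% of all tested genes were counted. These were Bcl2l15 (log2 fold change 0.86, adjusted p = 0.192) and the survival kinase Pim1 (0.89, adjusted p = 0.145). Other genes among the 2 with the smallest p of each list were Stat5a (0.23), Bcl2l13 (0.23), the mitochondrial flavoprotein Aifm1 (0.27), the caspase 8 inhibitor Cflar (-0.23) and Tradd (-0.20). Of these, Stat5a was 0.08 without STZ replicate 1, Cflar -0.12 without Con replicate 3 and Tradd -0.09 without STZ replicate 3. Without the 4 libraries that stood apart, an alternative chosen after seeing the data, Bcl2l15 (adjusted p = 0.0250), Pim1 (0.00635) and Cflar (0.0232) passed. Pim1 also passed with the covariates (0.0257) and without A10-FMT replicate 3 (0.0306). With the covariates 98 of all tested genes passed in STZ against Con, beside 21 in the main fit.

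In A10-FMT against STZ, 4 of 13 other family genes, 2 of 18 mitochondrial genes, 1 of 10 death receptor genes and 4 of 12 survival genes were lower at an unadjusted p under 0.05, and 1 of 18 was higher, where 17.2% of all tested genes were counted in either direction. The lists' median log2 fold changes were -0.28, -0.02, -0.29 and -0.40, beside -0.15 for all tested genes. Among them were the BH3-only gene Bmf (-0.80, limma adjusted p = 0.220), Bok (-0.56), the apoptosis inhibitor Birc3 (-0.75), the cytokine signal factor Stat5a (-0.43) and the receptor chain Il2rb (-0.65). The TNF receptor Tnfrsf1a was -0.44, the death ligand Tnfsf10 was -0.40 and cytochrome c, Cycs, was 0.34, with adjusted p from 0.198 to 0.305 over these genes. When single libraries were left out, Bmf ranged from -0.98 to -0.51, Bok from -0.76 to -0.42 and Birc3 from -1.01 to -0.41. Stat5a ranged from -0.53 to -0.27, Il2rb from -0.85 to -0.39 and Tnfrsf1a from -0.57 to -0.36. Tnfsf10 ranged from -0.56 to -0.21 and Cycs from 0.16 to 0.48.

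In A10-FMT against Con-FMT the counts at an unadjusted p under 0.05 were 6 of 13 lower, 2 of 18 lower and 2 higher, 5 of 10 lower, and 5 of 12 lower and 1 higher in the same list order, where 23.6% of all tested genes were counted. The named genes were Bmf (-0.75), Bcl2a1b (-0.72, 1 of several near-identical copies whose reads can be shared), Cycs (0.34), Cflar (-0.52), Fas (-0.77), the survival kinase Pim2 (-0.59) and Il2rb (-0.63), with limma adjusted p from 0.204 to 0.205. These 7 passed without A10-FMT replicate 2, with adjusted p from 0.0351 to 0.0496, as did 2625 of 12891 genes. Without A10-FMT replicate 3 none of them passed, and Fas was -0.36, Cflar -0.25, Cycs 0.16, Bmf -0.47, Il2rb -0.37, Pim2 -0.41 and Bcl2a1b -0.52. The 12 B cell markers summed to 663 to 2262 RPKM in A10-FMT and 2422 to 2591 RPKM in Con-FMT, and the 11 T cell markers to 96.0 to 351 and 393 to 429 RPKM, so these marker lists did not overlap either. For the members, the covariates given above entered the erythroid and B cell levels together. The part of the B cell markers alone in these differences was therefore not tested for the members, nor was it for the lists. That of the T cell markers was not tested for the members or the lists.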

How the data were processed

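RNA from frozen spleens was selected with oligo(dT) and sequenced on an Illumina instrument. The deposited values are RPKM made by the authors. The methods name SOAPaligner, while the submitters' processing notes name Bowtie 0.12.2 and build mm10. No read counts were used, so depth, and with it the counting error of low genes, is unknown. Of 19326 lines, 6 with repeated names were left out. All columns matched a sample.

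Values were analysed as log2(RPKM + 1) with limma 3.58.1 (trend) in R 4.3.3, in 1 fit of 18 libraries with a coefficient per group. Genes needed an RPKM of 1 in 3 libraries, which left 12905, and p-values were Benjamini-Hochberg adjusted over them (threshold 0.05). The fit was tested on simulated data in which each gene was drawn on its own. Shifts shared by many genes of a library, as seen here, were not simulated. Fold changes on this scale understate those of low genes. Correlations used 100000 permutations (Python 3.11.15, scipy 1.17.1). Coordinates are from GENCODE M21 (GRCm38). The members and gene lists were chosen with earlier results of these data known. Of each pathway list, genes past the threshold, or else the 2 with the smallest p, are named for 3 comparisons, except an item that is not reported here. Alternatives were other scalings, filters, pseudocount, weights, covariates, a replicate block and left-out libraries.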

Additional observations from a re-analysis of the deposited data

How the results depend on the processing

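The count of 0 members past the adjusted threshold held in 257 of 269 refits over the 9 tests. Array weights, for which limma stopped before convergence with weights from 0.046 to 424, gave (beside the count over 12905 genes) 6 in STZ against Con (7828), 3 in A10 against Con (4794), 4 in STZ-A10 against A10 (3638), 1 in STZ-A10 against STZ (3488), 6 in A10-FMT against STZ (6663), 5 in Con-FMT against STZ (5009), 4 in A10-FMT against Con-FMT (8512), 1 for the interaction (1969) and 10 for any difference (12624). Leaving out 1 library gave 0 to 1 in A10-FMT against Con-FMT and 0 to 1 for any difference, each time without A10-FMT replicate 2. Leaving out the 4 libraries that stood apart, an alternative chosen after seeing the data, gave 1 for any difference. The cause was not tested.

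Directions turned for Bcl2l1. Its log2 fold change was -0.71 to 0.20 in STZ against Con and -0.28 to 0.63 in STZ-A10 against STZ when 1 library was left out (-0.011 with array weights), 0.16 in A10 against Con and -0.044 in A10-FMT against Con-FMT with covariates, and 0.48 in STZ against Con without the 4 libraries, where Bcl2 gave -0.12. Bid in A10-FMT against Con-FMT gave 0.035 with covariates and Bak1 0.049 with median centring.

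Median centring gave correlations with Alas2 of -0.21 (Mcl1), 0.20 (Bax), 0.52 (Bak1), 0.48 (Bad), -0.22 (Bcl2l11) and 0.18 (Bbc3), and with Cd79a of 0.46 (Mcl1), -0.077 (Bax), -0.58 (Bak1), 0.45 (Bid), -0.22 (Bbc3) and 0.35 (Pmaip1). Within groups they were -0.36 (Bcl2l11 with Alas2) and, with Cd79a, 0.68 (Bax), -0.28 (Bak1), 0.037 (Bad) and 0.55 (Pmaip1). Without the 2 libraries farthest from the median they were 0.071 (Bad), 0.43 (Bbc3) and -0.67 (Pmaip1) with Alas2, and 0.51 (Bcl2), 0.33 (Bax), 0.58 (Bak1), 0.38 (Bad), -0.12 (Bcl2l11), -0.17 (Bbc3) and 0.069 (Pmaip1) with Cd79a. A pseudocount of 0.1 gave 0.51 for Bcl2l11 with Cd79a. Without the 4 libraries they were -0.58 (Bcl2, no longer past the threshold), 0.047 (Bax), -0.68 (Bak1), -0.30 (Bcl2l11) and 0.66 (Bbc3) with Alas2, and 0.21 (Bcl2), 0.15 (Bax), 0.69 (Bak1), 0.37 (Bad), 0.44 (Bid), -0.30 (Bcl2l11), -0.70 (Bbc3) and 0.41 (Pmaip1) with Cd79a.

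Same-numbered libraries correlated over 0.1 in 3 of 21 pairs. These were STZ-A10 against STZ replicates 1 (r 0.57) and 3 (0.43) and A10-FMT against STZ replicate 3 (0.25). With 3 libraries a group, this check cannot settle whether the numbers pair the samples. The replicate block left the count of members past the threshold at 0 in every test. Median centring moved the median of all tested genes in A10-FMT against Con-FMT from -0.17 to 0.01 and split the members 5 higher and 5 lower in place of 1 and 9, and split all genes with an unadjusted p under 0.05 1360 higher and 1074 lower in place of 450 and 2590. In A10-FMT against STZ it moved that median from -0.15 to 0.02, and the split from 252 higher and 1964 lower to 935 and 718.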
